A study of Oryza sativa with 10 samples.

Results

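The peaks of H3K27me3 and of H3K36me3 in leaves of the rice variety GL were set side by side. They are all the peaks of the 2 lists deposited for this variety, 9639 for H3K27me3 and 9738 for H3K36me3, which is 19377 of the 93054 peaks in the 10 lists of the series. H3K27me3 is trimethylated lysine 27 of histone H3, a mark that Polycomb proteins set on repressed genes, many of them developmental regulators. H3K36me3, trimethylated lysine 36, is laid down over the bodies of genes while they are transcribed. In plant leaves the marks are known mostly from different genes, silent ones for H3K27me3 and active ones for H3K36me3.

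GL (Guangluai-4) is an inbred indica variety. The series also holds the indica varieties 93-11 and TQ and their F1 hybrids with GL, named GL×93-11 and GL×TQ, with 1 ChIP-seq library per genotype and mark. Plants were field grown, with no treatment named, and sampled when their secondary branches were differentiating, and the second fully expanded leaves of 3 plots were pooled. A mark therefore has no replicate in GL and no test was possible, and an antibody, a library and its depth cannot be told apart from the mark. A leaf holds several cell types, so 2 marks at 1 place may lie in the same cells or in different ones, which these data cannot tell apart. The reads of GL were mapped by the authors to Nipponbare, a japonica variety, and places that GL lacks or carries in a changed form may not have given peaks. Positions are those of that genome, of which the sources used here give no version, and genes were not placed. All intervals are 95% intervals, of the binomial kind for medians, Wilson for shares and exact Poisson for tags, and cover counting error only, since neighbouring peaks of 1 library are not replicates.

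H3K27me3 occupied less of the genome than H3K36me3, in shorter peaks. The H3K27me3 peaks covered 19.7 Mb, or 5.28% of the 372 Mb that reach up to the last peaks of the chromosomes, and the H3K36me3 peaks covered 24.7 Mb, or 6.64%. They held 4634144 tags (mapped reads counted in a peak) for H3K27me3 and 7096067 tags for H3K36me3, or 11.0% of the reads mapped to 1 place in the H3K27me3 library and 14.9% of those in the H3K36me3 library, by the totals the study lists. The median H3K27me3 peak was 1864 bp long (interval 1839 to 1884 bp), and the median H3K36me3 peak 2635 bp (2600 to 2668 bp). The difference of medians was -771 bp (interval -812 to -730 bp, combined from those of the medians).

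The lists differed in their long peaks more than in the extremes. Of the H3K27me3 peaks 16.2% (15.5% to 16.9%) were 3000 bp or longer, against 37.4% (36.5% to 38.4%) of the H3K36me3 peaks. Peaks under 1000 bp made up 6.34% of the H3K27me3 list and 3.49% of the H3K36me3 list. The shortest and longest H3K27me3 peaks measured 394 and 4519 bp, and the shortest and longest H3K36me3 peaks 392 and 4394 bp. In the plot of peak lengths, H3K27me3 has a single maximum just above 1000 bp, whereas H3K36me3 has a lower maximum there and its highest above 3000 bp. Of the H3K36me3 peaks, 1532 were of 1000 to 1500 bp, 1289 of 2000 to 2500 bp and 1863 of 3000 to 3500 bp. Of all possible pairs of 1 peak from each list, the H3K27me3 peak was the longer one in 34.7%. With the 5000 peaks of highest score in each list the difference of medians was -561.5 bp, and its sign was the same.

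**Figure D1:**
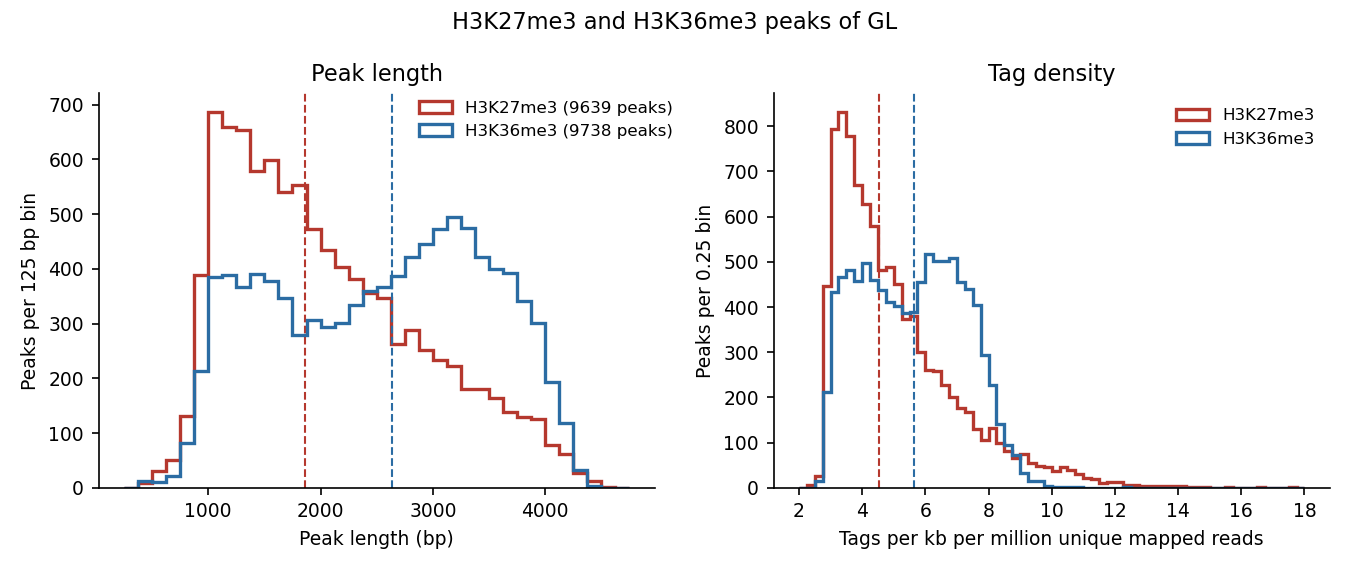
Histograms of peak length (left, in bp) and of tags per kb of peak per 1000000 unique mapped reads (right) for all peaks of GL, H3K27me3 in red and H3K36me3 in blue, with dashed lines at the medians. The medians are 1864 bp for H3K27me3 and 2635 bp for H3K36me3 on the left, and 4.52 for H3K27me3 and 5.63 for H3K36me3 on the right, where only H3K27me3 has a long upper tail.

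Which mark was denser inside its peaks depended on the scale. As deposited, the median H3K27me3 peak had 191 tags per kb (189 to 193) and the median H3K36me3 peak 269 (266 to 272). Scaled for depth, per 1000000 unique mapped reads of the library, the medians were 4.52 tags per kb for H3K27me3 and 5.63 for H3K36me3, and the H3K27me3 peak was the denser one in 38.5% of all pairs of 1 peak from each list. Per 1000000 tags inside peaks the order turned round, with medians of 41.2 tags per kb for H3K27me3 and 37.9 for H3K36me3. No direction between the marks is therefore given for the level within peaks. The upper tail was longer for H3K27me3: its densest 5% of peaks began at 9.04 depth-scaled tags per kb and reached 17.7, against 8.13 and 12.4 for H3K36me3.

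Fold enrichment, the ratio of the tags of a peak to the local expectation of the peak caller, was slightly higher for H3K27me3 over all peaks, but not at all lengths. Its median was 3.25 in H3K27me3 peaks (3.23 to 3.26) and 2.98 in H3K36me3 peaks (2.96 to 3). In peaks of 1000 to 1500 bp the order was the other way, with 3.43 for H3K27me3 and 3.63 for H3K36me3, as it was at 1500 to 2000 bp, with 3.45 for H3K27me3 and 3.57 for H3K36me3. The score, 10 times the negative log10 of the peak caller's p-value, had a median of 140.9 for H3K27me3 and 170.5 for H3K36me3. Scores of 500 or more were nevertheless found in 432 H3K27me3 peaks (4.48%) and in 268 H3K36me3 peaks (2.75%).

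Length and level were tied within both lists. Across peaks, the Spearman correlation of length with tags per kb was 0.69 for H3K27me3 and 0.72 for H3K36me3, and that of length with fold enrichment was -0.33 for H3K27me3 and -0.60 for H3K36me3. Peaks of 1 list share their library and are not independent, so these values only describe the lists. Between peaks under 1000 bp and peaks of 3500 bp or more, the median fold enrichment differed in both lists. It was 3.69 in the short and 2.70 in the long H3K27me3 peaks, and 3.66 in the short and 2.51 in the long H3K36me3 peaks. The widest peaks were thus rich in tags and poor in fold enrichment in both lists, and 53.6% of the H3K27me3 peaks and 49.0% of the H3K36me3 peaks of 3500 bp or more had a score under 100.

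The summit, the position of the most tags in a peak, lay in different parts of the peaks. It was in the outer 25% at either end in 9.32% of the H3K27me3 peaks (8.75% to 9.91%) and in 25.05% of the H3K36me3 peaks (24.2% to 25.9%). Within the class of 3500 bp or more these shares were 12.96% for H3K27me3 and 46.0% for H3K36me3. Below 2000 bp the order was the other way, as in the class of 1000 to 1500 bp with 3.61% for H3K27me3 and 2.15% for H3K36me3. The outer parts at both ends together cover as much of a peak as its middle. The long H3K36me3 peaks thus had their summit in the outer parts nearly as often as in the middle. The long H3K27me3 peaks had it mostly in the middle. Which end of a gene the outer summits lay at was not examined, because genes were not placed.

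The peaks of highest score show what the lists hold at their upper end. The highest H3K27me3 score was 1540, on chromosome 12 from 26932916 to 26934035, a peak of 1120 bp with 501 tags (interval 458 to 547) and a fold enrichment of 7.85. The next were on chromosome 1 from 29176214 to 29177855 (1458), on chromosome 9 from 8297403 to 8298407 (1425), on chromosome 11 from 20637219 to 20639142 (1409) and on chromosome 5 from 1389169 to 1391061 (1391). Of all H3K27me3 peaks only 8.80% overlapped an H3K36me3 peak of GL, and none of these 5 did. Their nearest H3K36me3 peak in GL was 7067 to 94795 bp away. Each of the 5 overlapped an H3K27me3 peak and no H3K36me3 peak in all 4 other genotypes. Among all H3K27me3 peaks of GL outside overlaps, 51.7% met an H3K27me3 peak in all 4. Only 1.10% to 1.72% of them met an H3K36me3 peak in a given genotype, so the lack of H3K36me3 was common to nearly all.

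The highest H3K36me3 score was 1163, at 294405 to 296005 of chromosome 3, where the peak had a fold enrichment of 4.87 and 583 tags (537 to 632). This H3K36me3 peak had no counterpart of its mark in 93-11 or TQ, and had one in both hybrids. The next was a peak on chromosome 6 from 11798497 to 11800012, with a score of 1132 and 529 tags, of whose 1516 bp an H3K27me3 peak of GL covered 1515. That place carried peaks of both marks in all 4 other genotypes too. The others were on chromosome 6 from 20694892 to 20696560 (1119), on chromosome 2 from 35109135 to 35110106 (1018), with the highest fold enrichment of the list, 8.34, and on chromosome 3 from 32707398 to 32709565 (987.1), and none of these 3 met an H3K27me3 peak in any of the 5 genotypes. Of all H3K36me3 peaks of GL, 8.71% overlapped an H3K27me3 peak of GL. Among those outside overlaps, only 1.25% to 2.40% met an H3K27me3 peak in a given other genotype.

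The longest peaks had scores near the lowest of their lists, which were 50.02 for H3K27me3 and 50.01 for H3K36me3. The 3 longest H3K27me3 peaks, 4460 to 4519 bp on chromosomes 10, 2 and 12, had scores of only 50.04 to 53.8, and the 3 longest H3K36me3 peaks, 4379 to 4394 bp on chromosomes 2, 10 and 6, had scores of 55.4 to 56.8. The longest H3K27me3 peak had 2098 tags, at 2859831 to 2864349 of chromosome 10, and was met by an H3K27me3 peak in 93-11 and in no other genotype. The longest H3K36me3 peak had 1950 tags, at 34999335 to 35003728 of chromosome 2, and was met by an H3K36me3 peak in 93-11, TQ and GL×TQ. By tags per kb, the densest H3K27me3 peak lay on chromosome 7 from 10995573 to 10998985 with 747 tags per kb, at a score of 634 and a fold enrichment of 2.51. The densest H3K36me3 peak lay on chromosome 6 from 18952488 to 18953713 with 593 tags per kb, at a score of 937 and a fold enrichment of 5.62, and 1174 of its 1226 bp were also under an H3K27me3 peak.

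Neighbouring H3K27me3 peaks lay slightly farther apart than neighbouring H3K36me3 peaks when all peaks were taken. Between H3K27me3 peaks the median gap was 19914 bp (19228 to 20733 bp) and between H3K36me3 peaks 18219 bp (17582 to 18891 bp), a difference of 1695 bp (698 to 2692 bp). With 5000 peaks per list the difference was 185.5 bp and its interval, -2607 to 2978 bp, included 0, and with scores of 100 or more it was 5878 bp, so its size depended on the peaks taken. Gaps of 100 kb or more were 8.41% of the H3K27me3 gaps and 7.74% of the H3K36me3 gaps. The longest gap without H3K27me3 had 666774 bp, on chromosome 9 from 2503550 to 3170323, and 15 H3K36me3 peaks followed one another across nearly the same stretch, from 2504436 to 3139705. The longest gap without H3K36me3 had 865073 bp, on chromosome 7 from 13655113 to 14520185.

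Few peaks stood in tight groups. Joining peaks of a mark with gaps under 1000 bp gave 334 chains of H3K27me3, with 7.09% of its peaks, and 370 chains of H3K36me3, with 7.80%. No chain had more than 4 peaks. The longest chain of H3K27me3 spanned 13218 bp on chromosome 1 from 41363357 to 41376574, with 4593 tags in 4 peaks. That of H3K36me3 spanned 14666 bp on chromosome 1 from 34635380 to 34650045, with 4303 tags in 4 peaks. The next chains of H3K27me3 lay on chromosome 3 from 31877638 to 31888472 and on chromosome 7 from 28967878 to 28978194, and those of H3K36me3 on chromosome 4 from 31507631 to 31518915 and on chromosome 5 from 25390803 to 25401939. No peak of the other mark touched any of these 6 chains. Over all single peaks, only 8.80% of H3K27me3 and 8.71% of H3K36me3 overlapped the other mark, and the share of all chains is not given here.

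**Figure D2:**
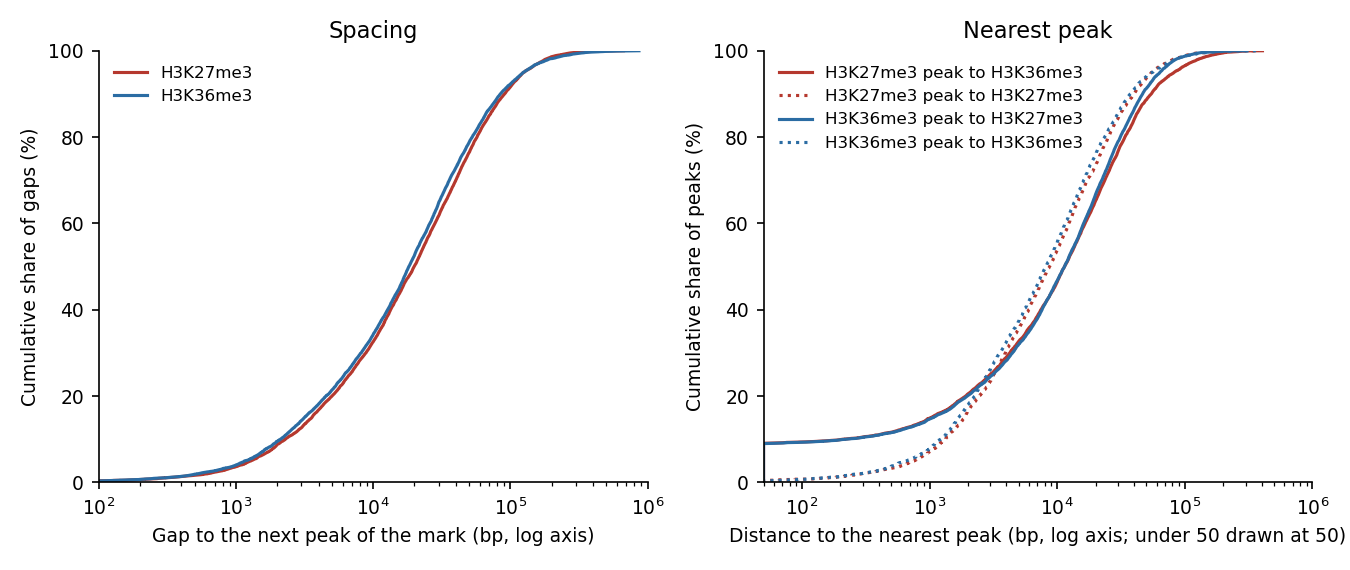
Cumulative shares, on log axes of bp, of the gaps between neighbouring peaks of a mark (left) and of the distances from a peak to the nearest peak (right) in GL, H3K27me3 in red and H3K36me3 in blue, solid lines for the other mark and dotted lines for the same mark. The gap curves lie close together, with medians of 19914 bp for H3K27me3 and 18219 bp for H3K36me3, and the solid curves on the right start near 9% because of overlapping peaks and then fall behind the dotted ones.

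The distance to the other mark had the same median from both sides. It was 11396 bp (10945 to 11927 bp) from an H3K27me3 peak to the nearest H3K36me3 peak, and 11404 bp (10900 to 11847 bp) from an H3K36me3 peak to the nearest H3K27me3 peak. The nearest peak of the same mark was closer, at a median of 8705 bp for H3K27me3 and 8178 bp for H3K36me3. The same mark was the nearer one for 53.9% of the H3K27me3 peaks (52.9% to 54.9%) and for 54.9% of the H3K36me3 peaks (53.9% to 55.9%). Far distances were more common from H3K27me3: 3.496% of its peaks (3.15% to 3.88%) were 100 kb or more from the other mark, against 1.25% (1.05% to 1.49%) of the H3K36me3 peaks.

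Along the chromosomes the marks were mixed, with some sorting into runs. An H3K27me3 peak was followed by another H3K27me3 peak in 54.9% of cases, where H3K27me3 made up 49.7% of all peaks, and an H3K36me3 peak by another of its mark in 55.3%, where H3K36me3 made up 50.3%. The longest run without a peak of the other mark had 25 H3K27me3 peaks, on chromosome 11 from 15871510 to 16448861, over 577 kb of which they covered 9.17%. The longest runs of H3K36me3 had 15 peaks, and the most compact of them, on chromosome 3 from 3638228 to 3836419, covered 21.6% of 198 kb. Runs of 10 or more peaks numbered 41 for H3K27me3 and 34 for H3K36me3.

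The marks seldom lay on the same bases. Of the H3K27me3 peaks 848 (8.80%, 8.25% to 9.38%) shared at least 1 bp with an H3K36me3 peak, and of the H3K36me3 peaks 848 (8.71%, 8.16% to 9.28%) with an H3K27me3 peak, in 851 pairs. Both marks lay over 970487 bp, which is 4.94% of the bases under H3K27me3 and 3.93% of those under H3K36me3. Over the whole genome, H3K36me3 covered 6.64% of the bases and H3K27me3 5.28%, so each mark was rarer under the other mark than in the genome at large, and the product of the covers would put both marks on 1305204 bp. No test stands behind this comparison, since the peaks have no replicate. Among the pairs, 434 overlapped in part, 239 had the H3K36me3 peak inside the H3K27me3 peak, 175 had the H3K27me3 peak inside the H3K36me3 peak, and 3 had the same ends.

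Overlap went with short H3K36me3 peaks. In peaks under 1000 bp, 11.8% (9.46% to 14.6%) of H3K27me3 and 24.1% (19.9% to 28.9%) of H3K36me3 overlapped the other mark, and in peaks of 3500 bp or more 7.83% (6.10% to 9.99%) of H3K27me3 and 2.97% (2.28% to 3.87%) of H3K36me3. The overlapping H3K36me3 peaks had a median of 1761 bp, against 2711 bp for those that did not overlap, and 4.31 depth-scaled tags per kb against 5.77 for the rest. For H3K27me3 the corresponding medians were 1750 bp against 1872 bp, and 4.27 against 4.55. Where they overlapped, peaks of H3K27me3 and H3K36me3 thus had nearly the same median length. Whether their levels were alike depended on the scale, since per 1000000 tags in peaks the overlapping peaks had medians of 38.9 tags per kb for H3K27me3 and 28.96 for H3K36me3. The share that overlapped also moved with the score of the H3K27me3 peak, 6.33% at scores of 400 or more against 9.26% at scores under 100, whereas for H3K36me3 it was 8.13% at 400 or more and 9.37% under 100, with overlapping intervals.

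**Figure D3:**
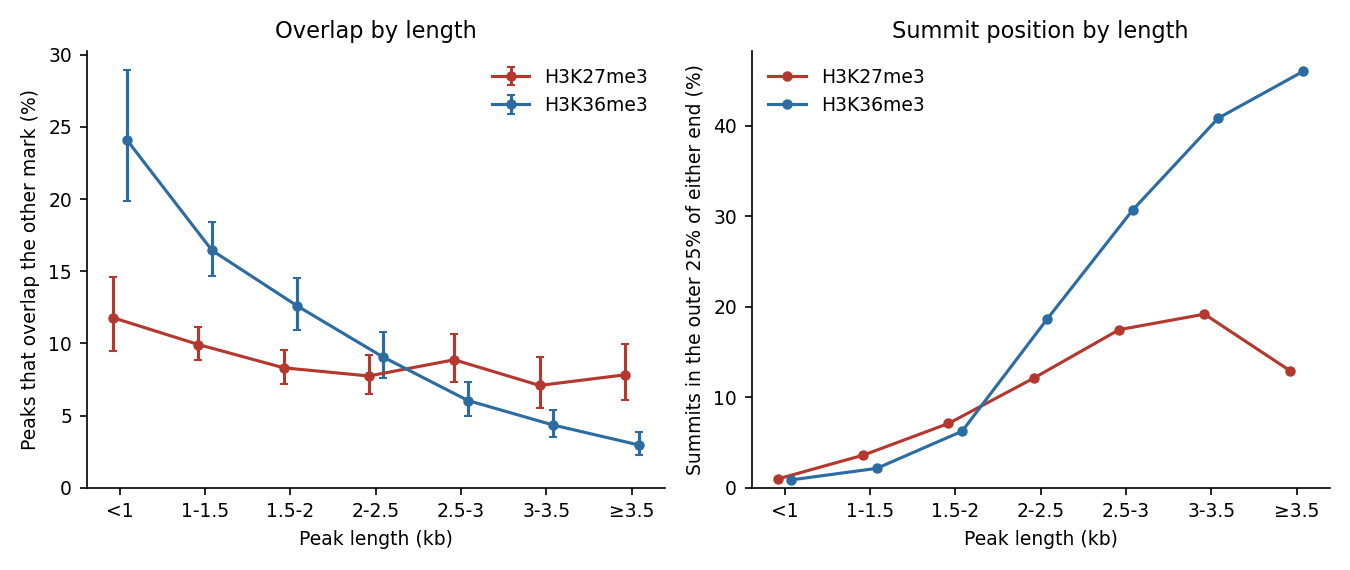
Share of peaks that overlap the other mark (left, with Wilson intervals as bars) and share of peaks whose summit lies in the outer 25% at either end (right), in 7 classes of peak length in kb, H3K27me3 in red and H3K36me3 in blue. The outer parts at both ends together cover as much of a peak as its middle. The overlapping share of H3K36me3 is 24.1% in the shortest class and 2.97% in the longest, that of H3K27me3 is 11.8% and 7.83%, and the share of outer summits in the longest class is 12.96% for H3K27me3 and 46.0% for H3K36me3.

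The overlaps reached from pairs that barely touched to pairs that were nearly identical. By the shared bases as a percentage of all bases under either peak of the pair, 156 pairs shared less than 10%, 389 pairs (45.7%) shared 30% to 80%, with 60 to 90 pairs in each class of 10 percentage points there, and 151 pairs shared 90% or more. The fewest, 18 pairs, shared 20% to 30%. A limit of 80%, chosen after these values had been seen, takes in 256 pairs, with 2.66% of the H3K27me3 peaks, 2.63% of the H3K36me3 peaks and 39.7% of all bases under both marks. In 140 of them both ends differed by at most 100 bp, and in 37 by at most 10 bp. Their peaks were short, with medians of 1406 bp for H3K27me3 and 1401 bp for H3K36me3, and their summits lay a median of 48.5 bp apart. Without these pairs, 3.04% of the bases under H3K27me3 lay under H3K36me3, and 2.41% of the bases under H3K36me3 under H3K27me3.

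Within the nearly identical pairs the levels of the marks went together. Their fold enrichment had a median of 3.57 for H3K27me3 and 3.66 for H3K36me3. In depth-scaled tags per kb the median log2 ratio of H3K27me3 over H3K36me3 was 0.04, with quartiles of -0.17 and 0.20, and 253 of the 256 pairs (98.8%) were within 2-fold. Per 1000000 tags in peaks, a scale added after the values had been seen, the median log2 ratio was 0.48 and 239 pairs (93.4%) were within 2-fold. In the other 595 pairs the depth-scaled quartiles were -0.50 and 0.52, farther apart than in the nearly identical pairs. A change of scale shifts all pairs alike and leaves the width as it is. The nearly identical pairs were chosen for like ends and so had like lengths, and tags per kb rose with length in both lists. The choice of pairs can therefore narrow the spread by itself, and how much it did was not tested. The tags of the H3K27me3 and of the H3K36me3 peak had a Spearman correlation of 0.89 across the nearly identical pairs. Across the other pairs it was -0.02. Tag counts grow with length, which the peaks of a nearly identical pair share. For tags per kb the correlation was 0.61 and for fold enrichment 0.68, against -0.03 and 0.10 in the other pairs. No input library was analysed here, and the part of read background common to both libraries in these pairs was not tested.

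**Figure D4:**
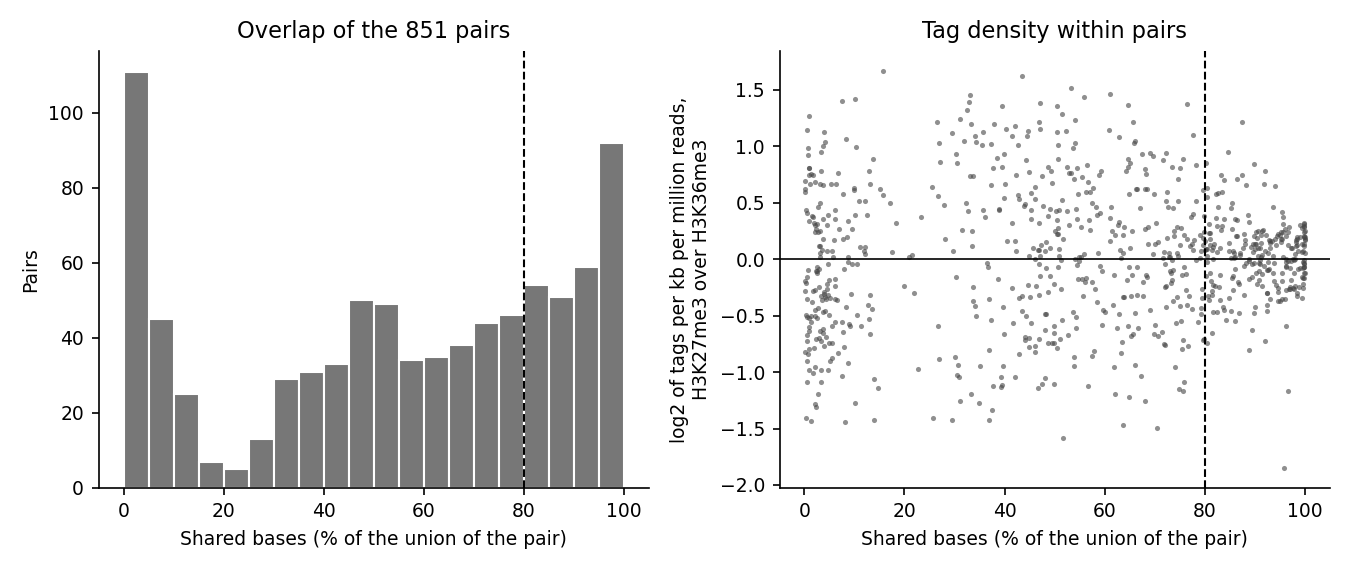
The 851 overlapping pairs of an H3K27me3 and an H3K36me3 peak of GL, as a histogram of the shared bases in percent of the union of the pair (left) and as points with the log2 ratio of depth-scaled tags per kb, H3K27me3 over H3K36me3 (right), with a dashed line at 80%. Single classes are fullest below 10% (156 pairs) and above 90% (151 pairs), with 389 pairs between 30% and 80%, and to the right of 80% the points lie closer together, with quartiles of -0.17 and 0.20.

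The overlaps with most shared bases were all nearly identical pairs. The largest had 3995 bp in common, on chromosome 3, where the H3K27me3 peak ran from 13477323 to 13481326 with 925 tags and the H3K36me3 peak from 13477324 to 13481318 with 883 tags. The next lay on chromosome 12 (3969 bp shared, H3K27me3 from 20631961 to 20635932 with 1201 tags, H3K36me3 from 20631964 to 20635938 with 1399 tags) and on chromosome 10 (3947 bp, H3K27me3 from 5762488 to 5766435 with 853 tags, H3K36me3 from 5762489 to 5766435 with 813 tags). Both of these carried both marks in all 4 other genotypes, whereas the largest did so in 93-11 and GL×TQ only. The other 2 were on chromosome 3, with 3764 bp and 3685 bp shared, and in the first of these, where the H3K27me3 peak ran from 7791356 to 7795119, the levels were unlike, with 742 tags for H3K27me3 and 1955 tags for H3K36me3. That place carried both marks in TQ only among the other genotypes. The overlap of 3685 bp, where the H3K27me3 peak began at 12066652, carried both marks in 93-11 and GL×TQ only.

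The overlaps in which both scores were highest were nearly identical pairs as well. On chromosome 4 from 9188352 to 9189380 both peaks had the same ends and the same summit, with 286 tags and a fold enrichment of 7.52 for H3K27me3 and 312 tags and 6.94 for H3K36me3. On chromosome 9, an H3K27me3 peak from 13614911 to 13617273 with 1072 tags lay over an H3K36me3 peak from 13614913 to 13617201 with 961 tags. Also on chromosome 9, an H3K27me3 peak from 4677493 to 4679009 with 335 tags lay over an H3K36me3 peak from 4677493 to 4679004 with 424 tags. All 3 places had peaks of both marks in all 4 other genotypes, as 35.9% of the 256 nearly identical pairs did.

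The peak lists of the other genotypes gave a look at the same places in other libraries. Of the 256 nearly identical pairs of GL, 48.8% had peaks of both marks over their shared bases in the variety 93-11 and 53.5% in TQ, 66.8% in the hybrid GL×93-11 and 57.0% in GL×TQ, and 92 (35.9%, 30.3% to 42.0%) in all 4. Of the other 595 pairs, 28.7% did in the variety 93-11 and 35.3% in TQ, 45.7% in the hybrid GL×93-11 and 39.2% in GL×TQ, and 121 (20.3%, 17.3% to 23.8%) in all 4. Their shared bases are often fewer, which makes a match harder. The peaks of GL that carried 1 mark only seldom met the other mark elsewhere. Of the 8791 H3K27me3 peaks outside overlaps, 66.0% to 73.5% met an H3K27me3 peak and 1.10% to 1.72% an H3K36me3 peak in another genotype, and of the 8890 H3K36me3 peaks outside overlaps, 78.5% to 86.7% met an H3K36me3 peak and 1.25% to 2.40% an H3K27me3 peak.

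In windows of 100 kb both marks were usually present. Each mark by itself was in most windows, so a high share with both needs no relation between the marks. Of the 3714 full windows, 2812 (75.7%, 74.3% to 77.1%) held bases under both marks, 415 (11.2%) only under H3K27me3, 319 (8.59%) only under H3K36me3, and 168 (4.52%) under neither. The median window had 4545 bp under H3K27me3 and 5664 bp under H3K36me3. The densest 10% of the windows held 26.5% of the bases under H3K27me3 and 27.3% of those under H3K36me3. Neighbouring windows resembled each other less in H3K27me3 (Spearman correlation 0.18) than in H3K36me3 (0.35), values that describe windows next to each other on the same chromosomes.

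Across windows the marks were nearly unrelated. The Spearman correlation of the bases under H3K27me3 with those under H3K36me3 was 0.10 over the 3714 windows, and -0.0014 over the 3546 windows that held any peak. Windows without any peak are low in both marks, so leaving them out lowers the value by construction. By chromosome the correlation ran from -0.055 on chromosome 3 to 0.249 on chromosome 8. In windows of 500 kb over the genome it was 0.30. The windows come from the same 2 libraries, lie next to each other and share the mappability of their sequence. The relation was not a straight one: from the windows with least to those with most H3K36me3, in 5 equal classes, the median under H3K27me3 was 3322, 4372, 5401, 5079 and 4440 bp, highest in the middle class. The densest 10% of windows, 371 for each mark, had 29 windows in common (7.82% of each), where unrelated sets of that size would share about 10%.

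Single windows show how far the marks could part. Most H3K27me3 lay on chromosome 1 from 23300001 to 23400000, with 25709 bp against 9715 bp of H3K36me3. It was followed by chromosome 8 from 19300001 to 19400000, with 25705 bp of H3K27me3 and 0 bp of H3K36me3, and by chromosome 2 from 21600001 to 21700000, with 23934 bp and 0 bp. Most H3K36me3 lay on chromosome 5 from 22500001 to 22600000, with 2013 bp of H3K27me3 against 34122 bp of H3K36me3. On chromosome 3 from 3700001 to 3800000 there were 0 bp of H3K27me3 and 33187 bp of H3K36me3, and on chromosome 1 from 30000001 to 30100000 there were 5067 bp and 32423 bp. By the difference between the marks, chromosome 8 from 4200001 to 4300000, with 21136 bp of H3K27me3 and 0 bp of H3K36me3, and chromosome 3 from 900001 to 1000000, with 0 bp and 30059 bp, joined these. The side that was higher in GL was higher in each of the 4 other genotypes in all 8 of these windows. They were picked for their extreme values in GL, and the share of all windows that kept their side is not given here. The chromosome 8 window, for example, had 13904 to 20454 bp of H3K27me3 and 973 to 1405 bp of H3K36me3 in those lists.

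Other windows were dense in both marks on separate bases. On chromosome 3 from 5200001 to 5300000 there were 17668 bp of H3K27me3 in 7 peaks and 16920 bp of H3K36me3 in 6 peaks, with 0 bp in common. The next by the lower of the 2 values were chromosome 5 from 27800001 to 27900000, with 15977 bp of H3K27me3, 21430 bp of H3K36me3 and 333 bp in common, and chromosome 3 from 28000001 to 28100000, with 16325 bp, 15843 bp and 0 bp in common. The longest stretch of windows without a peak of either mark had 5 windows, on chromosome 6 from 18300001 to 18800000.

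The window on chromosome 12 from 13300001 to 13400000, named here after its values had been seen, was unlike these. It had 16375 bp of H3K27me3 and 15833 bp of H3K36me3, of which 15053 bp were under both. The fold enrichment in its 13 overlaps had medians of 3.63 for H3K27me3 and 3.66 for H3K36me3, and 10 of them were nearly identical pairs, the most in any window. The window beside it, from 13400001 to 13500000, held 5 more. The bases under both marks in the first window numbered 14765 bp in 93-11 and 14053 bp in TQ, 14832 bp in GL×TQ and 16462 bp in GL×93-11. Chromosome 12 as a whole had 38 of the 256 nearly identical pairs, on 708 H3K27me3 peaks. Chromosome 3 had 33 pairs on 982 H3K27me3 peaks, chromosome 1 had 30 on 1204 and chromosome 10 had 24 on 629. Over all chromosomes, 2.66% of the H3K27me3 peaks were in such pairs.

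H3K36me3 was spread more unevenly over the chromosomes than H3K27me3. H3K27me3 covered between 4.89% of chromosome 8 or 12 and 5.71% of chromosome 1. H3K36me3 covered between 4.55% of chromosome 11 and 8.96% of chromosome 3. The ratio of the covers, H3K27me3 over H3K36me3, was 0.633 on chromosome 3 and 1.18 on chromosome 11, the only chromosome of the 12 with a ratio above 1. Chromosome 11 had 755 peaks of H3K27me3 and 549 of H3K36me3, and chromosome 3 had 982 of H3K27me3 and 1231 of H3K36me3. The lengths kept their order on each chromosome, with medians of 1707 to 1990 bp for H3K27me3 and 2315 to 2788 bp for H3K36me3.

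Within chromosomes, H3K36me3 was on average concentrated toward the ends. With each chromosome divided into 20 equal parts and averaged over the 12 chromosomes, H3K27me3 covered between 3.55% and 6.57% of a part and H3K36me3 between 3.49% and 9.66%. The lowest values lay in the middle, in the eighth part for H3K27me3 and in the tenth for H3K36me3. The first part had 5.12% of H3K27me3 and 8.27% of H3K36me3, the tenth 4.10% and 3.49%, and the last 6.34% and 9.66%. Single chromosomes departed from this average. In parts 2 to 10 of chromosome 4, H3K27me3 covered 0.652% to 5.36% and H3K36me3 only 1.20% to 2.61%, and in the last part of chromosome 11 the covers were 4.74% for H3K27me3 and 3.83% for H3K36me3.

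**Figure D5:**
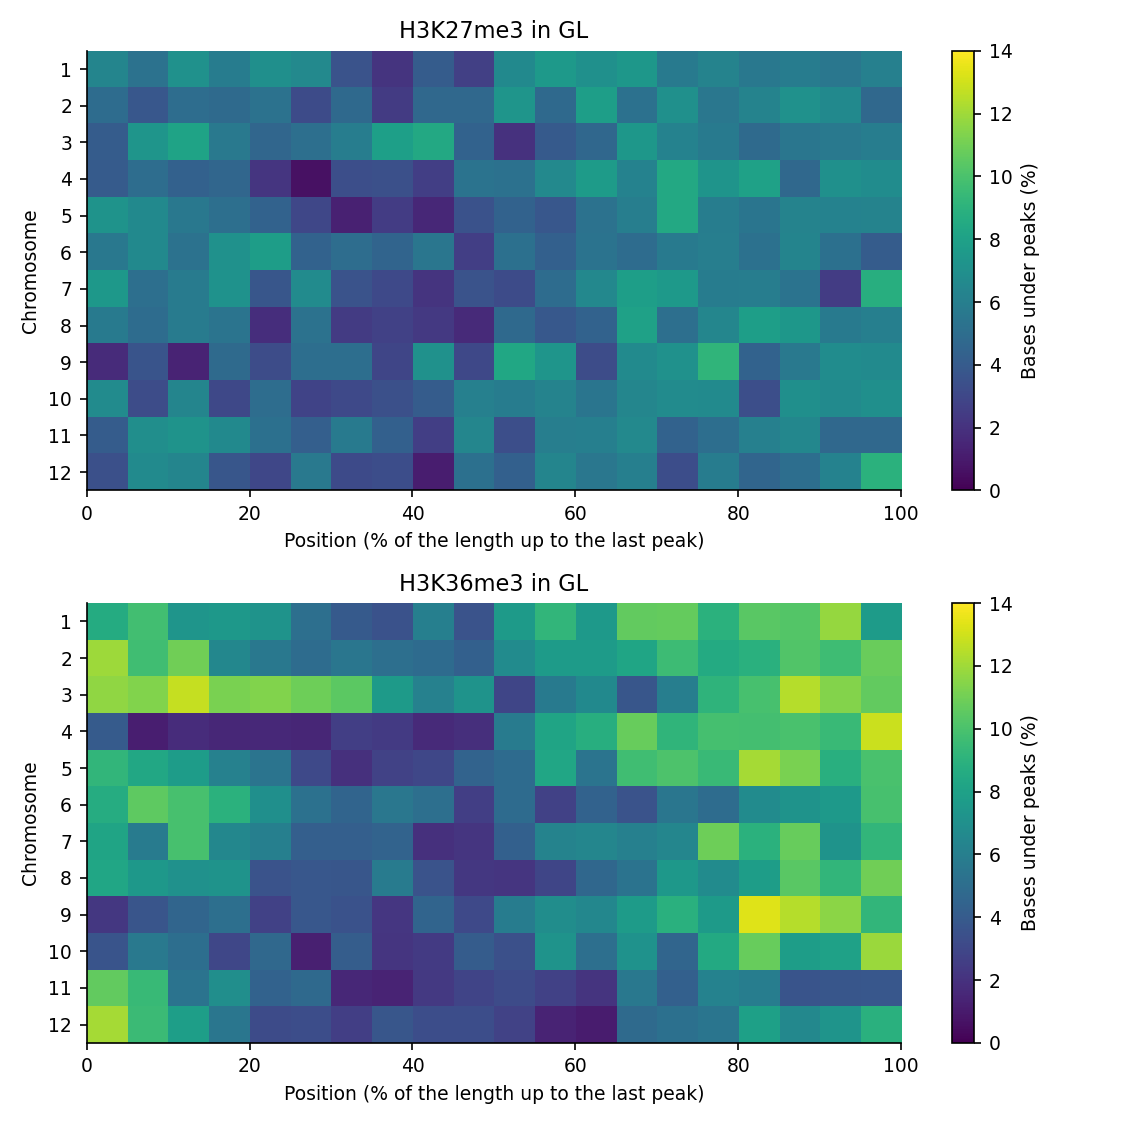
Share of bases under H3K27me3 peaks (above) and H3K36me3 peaks (below) of GL in 20 equal parts of each of the 12 chromosomes, on 1 colour scale in percent, with position as a percentage of the length up to the last peak. Averaged over chromosomes, H3K27me3 ranges between 3.55% and 6.57% and H3K36me3 between 3.49% and 9.66%, whose highest values lie toward the chromosome ends.

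The difference between the marks in length had the same direction and a like size in all genotypes. The difference of medians, H3K27me3 minus H3K36me3, was -771 bp in GL, against -702 bp in 93-11 and -779.5 bp in TQ, -713 bp in GL×TQ and -688 bp in GL×93-11. That of the gaps was 1695 bp in GL, against 3300 bp in 93-11 and 5162 bp in TQ, 3612 bp in GL×TQ and 5695 bp in GL×93-11. Depth-scaled tags per kb were lower for H3K27me3 in all 5 genotypes, and tags per kb per 1000000 tags in peaks higher in all 5. Overlap was more common in GL: 851 pairs, 256 of them nearly identical, against 543 and 177 in 93-11, 565 and 186 in TQ, 537 and 158 in GL×TQ and 657 and 219 in GL×93-11. Nearly identical pairs were not a larger part of the overlaps in GL. They made up 30.1% of its pairs, against 32.6% in 93-11, 32.9% in TQ, 29.4% in GL×TQ and 33.3% in GL×93-11. With 1 library per genotype and mark, a difference of GL from the other genotypes and one of its libraries cannot be told apart.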

How the data were processed

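ChIP-seq with antibodies against H3K27me3 and H3K36me3 gave 10 libraries, 1 per genotype and mark, of which the 2 of GL were compared. After read filtering, the authors aligned with SOAP2 to the Nipponbare genome of Gramene, allowing 2 mismatches, and called peaks per library with MACS 1.4.0 at a p-value of 1e-05; an input control for this step is not named. The deposited lists give for each peak a position, a tag count, a score and a fold enrichment ratio. The heading of the score column is damaged, and it was read as 10 times the negative log10 of the p-value since its lowest values in GL are 50.02 and 50.01, as that threshold gives. The totals of unique mapped reads came from the study's supplement.

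Length was computed as end minus start plus 1. Tags per kb are the deposited tag counts over length. Gaps and distances run between nearest edges, overlap needs 1 shared bp, and windows of 100 kb had to be full. In 1 peak the start lay below position 1. Regions were named by rule: per mark the 5 highest scores, the 3 longest and densest peaks and the 3 longest chains with gaps under 1000 bp; for both marks the 5 largest overlaps, the 3 with the highest lower score, and the extreme windows. Of the 3 longest and the 3 densest peaks, the first is given in full. The members and rules were chosen with earlier results of these data known, and the 80% limit and the window with most bases under both marks after values had been seen. No test between the marks was run, since a mark has 1 library; over the 5 genotypes, values far from the rest were looked for by Dixon's limit. The counting steps were tested on simulated data. Scripts ran under Python 3.11.15 with scipy 1.17.1, pandas 2.3.3, matplotlib 3.10.9 and numpy 2.4.6. Alternatives covered the score, list length, joining of peaks, scaling, overlap rule, distance and window size. The gene annotation at hand is of another assembly, so genes and sequences were not used here.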

Additional observations from a re-analysis of the deposited data

Results flagged for a closer look

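In 3 of 26 measures compared over the 5 genotypes, GL lay far from the other genotypes relative to the whole range, by Dixon's limit for 5 values, which chance alone passes in about 1 of 20 groups. The measures are related to each other, and the 5 values are different genotypes rather than replicates. The share of H3K36me3 peaks that overlap H3K27me3 was 8.71% in GL, against 5.57% in 93-11 and 5.71% in TQ, 5.63% in GL×TQ and 6.45% in GL×93-11. The median distance from an H3K36me3 peak to the nearest H3K27me3 peak was 11404 bp in GL, against 13586 bp in 93-11 and 14210 bp in TQ, 13767 bp in GL×TQ and 14339 bp in GL×93-11. The Spearman correlation of the marks over windows was 0.10 in GL, against 0.077 in 93-11 and 0.071 in TQ, 0.075 in GL×TQ and 0.068 in GL×93-11. Seen from H3K27me3, the overlapping share and the distance were not among the 3. Of the H3K27me3 peaks 8.80% overlapped in GL and 7.81% in GL×93-11, and the distance was 11396 bp in GL and 11873 bp in GL×93-11. GL also had the longest H3K27me3 list, and whether list length bears on these values was not tested.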

How the results depend on the processing

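The results were recomputed under the alternatives that apply to each, which gave 51 values. In 16 the value stayed within its counting interval or limit, in 34 it moved further with the same sign, and in 1 the sign turned. That one is the difference in tags per kb, 3.34 per 1000000 tags in peaks, against -77.8 as deposited and -1.11 per 1000000 unique mapped reads. With scores of 100 or more, and with the 5000 highest scores per list, the difference in length was -638 and -561.5 bp, in tags per kb -67.1 and -66.9, and in gap 5878 and 185.5 bp. Under the same 2 limits the overlapping share was 6.70% and 4.84% of H3K27me3 peaks and 5.95% and 4.84% of H3K36me3 peaks, bases under both marks were 514662 and 304079, the distance to the other mark was 16193 and 24881 bp from H3K27me3 and 17664 and 24133 bp from H3K36me3, and windows with both marks were 63.8% and 49.97%. These lists hold fewer peaks by construction. Without the nearly identical pairs, an alternative added after seeing the data, the overlapping share was 6.31% of H3K27me3 and 6.24% of H3K36me3 peaks, bases under both marks were 584946, the distances were 12387 bp from H3K27me3 and 12257 bp from H3K36me3, and windows with both marks were 74.2%. Counting overlaps from 50% of the shorter peak gave 6.86% and 6.81%. Distances between midpoints were 13760 bp from H3K27me3 and 13697 bp from H3K36me3. Windows of 50 kb held both marks in 48.6% and windows of 500 kb in 99.6%, and the correlation in windows of 500 kb was 0.30. Joining gaps under 500 bp moved none of the lengths, tag densities, gaps, overlaps and distances beyond its limit, and was not run for the windows. The levels within nearly identical pairs moved with the scale, as given above. No paired analysis was possible because each mark has 1 library in GL. With 1 library per mark, depth limits which weak peaks were called, and no value measures the spread between plants.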
